A study of Rattus norvegicus with 18 samples.

Results

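The liver of untreated obese rats was compared with the liver of normal rats, gene by gene. The groups were the obese control and the normal control of a study of plantain and orlistat, and they made up 6 of its 18 RNA sequencing libraries, 3 in each group. Both controls were male, 18 weeks old and given water, and neither received plantain or orlistat. Per the labels, the disease state was health in the normal control and obesity in the obese control. The sources used here do not give the strain, the diet or genotype behind the obesity, the body weights or the clock time of sampling. A gene entered the comparison when it reached 1 FPKM (sequenced fragments normalised to gene length and library size) in at least 3 of the 18 libraries, which left 11945 of 33657 genes. Whether the 3 libraries of a group are 3 animals is not stated in the labels, and p-values refer only to the variation among libraries, part of which could be technical. An exact permutation test of 3 against 3 cannot give a p under 0.1, so calls rest on the fit over all genes.

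The liver stores glucose as glycogen, turns surplus carbohydrate into fatty acids and triglyceride, makes and clears cholesterol, and exports lipids in lipoproteins. In feeding, insulin, SREBP and ChREBP raise the genes of lipid synthesis. In fasting, glucagon and PPARalpha raise those of fatty acid oxidation and glucose production. Sterols act on the same SREBP system by holding it in the endoplasmic reticulum through the INSIG proteins, and a daily clock drives many of these genes in rodent liver. In obesity the liver is known to store fat, to respond less to insulin and to take up inflammatory cells.

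The obese livers had far less mRNA for most enzymes of fatty acid synthesis and cholesterol synthesis and for most output genes of the circadian clock than the normal livers. They had more mRNA for the aldo-keto reductase gene Akr1c2, for claudin-1, a peroxisomal carnitine acyltransferase and INSIG2, and for most Kupffer cell markers. Values were compared as log2(FPKM + 1) with limma and Benjamini-Hochberg adjustment, and a gene is said to have risen or fallen in the obese control where the adjusted p was under 0.05. By that rule 55.1% of the genes passed, with 3191 higher (26.7%) and 3387 lower (28.4%). These shares are the background for the counts of every gene list below. List members were chosen with earlier results of these data known, so a count describes those members only. Most differences were small: 73.6% of those that passed were under 0.5 on the log2 scale, the quartiles of all genes were -0.22 and 0.21, and the median was 0.00. Differences over 1 were rare, with 158 genes higher (1.32%) and 209 lower (1.75%). The 3 obese and 3 normal values did not overlap for 62.5% of the genes. When the values were rescaled to TPM (a length-normalised share that gives every library the same sum), the median of all genes moved to -0.11, and 1973 genes were higher and 4569 lower. The direction of small differences therefore depends on the scaling, and a flip of a group's majority under TPM is given beside that group.

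**Figure D1:**
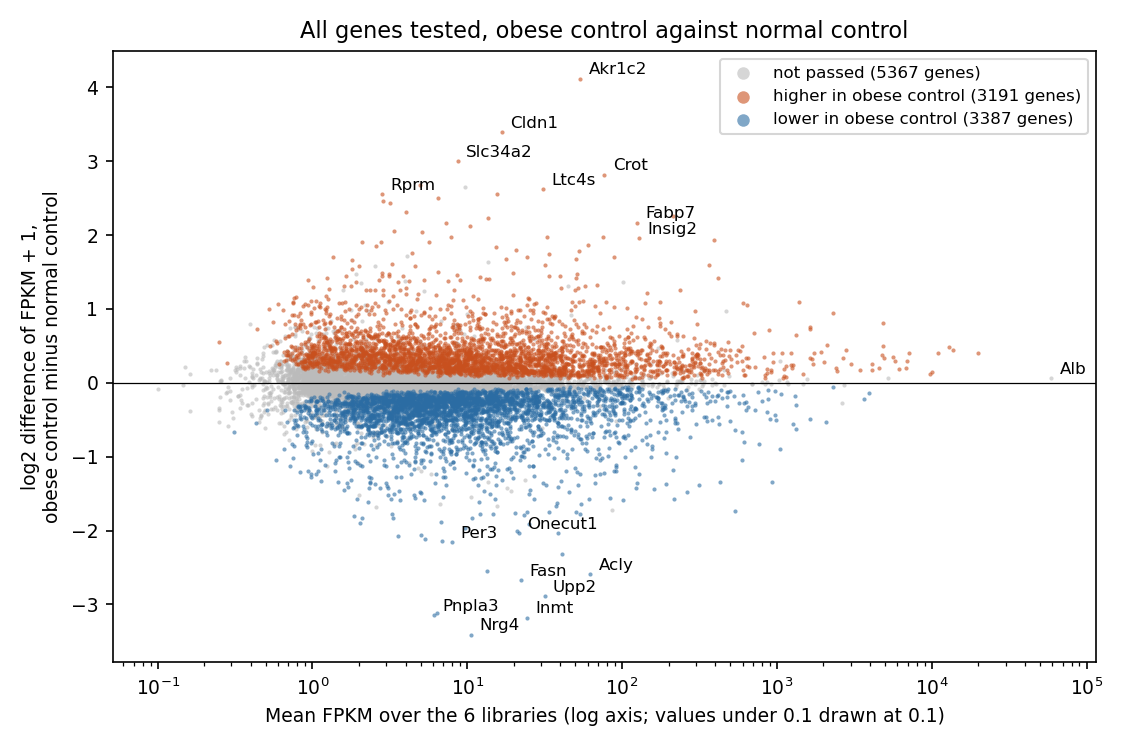
Each point is 1 of the 11945 genes, with its mean FPKM over the 6 libraries on a log axis and its log2 difference of FPKM + 1 (obese control minus normal control) on the other axis. Genes that passed lie close to 0 for the most part, and the labelled genes, from Akr1c2 at 4.12 to Nrg4 at -3.41, stand far from the rest.

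Libraries of a group lay close together. Between libraries of 1 group the correlation of log2 values across genes was 0.9899 to 0.9918, and between groups 0.9683 to 0.9699. On the reads recovered from the FPKM, the median squared difference between libraries of a group was 1.49 to 1.76 times that of counting error, and in every pair at least 12.2% of the genes differed past an unadjusted p of 0.05 in a chi-square test of a pair. No pair therefore agreed within counting error, as repeated sequencing of 1 library would be expected to. This says nothing of whether the libraries came from separate animals. An exact 0 in the table need not mean no expression: Fth1, the ferritin heavy chain that every cell makes, is listed at 0 in all 6 libraries. The recovered reads came to 25.5 to 26.2 M in the normal and 19.2 to 24.3 M in the obese libraries. Reads of mitochondrially encoded genes took 6.17% to 6.62% in the normal and 7.83% to 8.34% in the obese libraries, with no overlap. Albumin, the defining hepatocyte transcript, took 11.75% to 12.5% and 11.97% to 12.48%, so the labelled tissue showed its marker in all 6 libraries.

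Of the 15 most abundant genes, 13 rose and none fell, by small amounts such as 0.49 for Ttr, the thyroxine carrier, and 0.29 for Hp, haptoglobin. Neither of these named genes passed with quantile scaling (0.03 for Ttr and 0.04 for Hp), which makes the highest values of all libraries alike.

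The 20 largest rises and 20 largest falls were ranked among protein-coding genes that passed and whose ranges did not overlap. The separation of the groups in these genes therefore follows from the choice. Among the 20 largest rises were enzymes, a junction protein and growth arrest genes. Akr1c2, an aldo-keto reductase of steroid metabolism, stood at 4.42, 5.35 and 5.18 FPKM in the normal and 101, 105 and 102 FPKM in the obese libraries. Cldn1 (ENSRNOG00000001926, chromosome 11, 77815181 to 77830416 in the deposited table, build not named), the tight junction protein claudin-1, stood at 2.05, 1.803 and 2.41 FPKM in the normal and 32.5, 30.99 and 30.3 FPKM in the obese libraries. Crot (ENSRNOG00000006779, chromosome 4, 22081604 to 22116265), which transfers medium-chain acyl groups from peroxisomal acyl-CoA to carnitine, stood at 18.6, 18.4 and 17.9 FPKM in the normal and 137, 137 and 133 FPKM in the obese libraries. All 3 genes were low in every normal library and high in every obese library, with folds of 20.6, 14.98 and 7.403 between the group means. The log2 differences were 4.12 ± 0.066 for Akr1c2 (SE, limma adjusted p = 2.34e-16), 3.39 ± 0.070 for Cldn1 (2.64e-15) and 2.82 ± 0.032 for Crot (7.91e-18). Akr1c2 belongs to a family of near-identical copies, so its reads could be shared with relatives.

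Slc34a2, a sodium-dependent phosphate transporter, was measured at 1.12, 1.16 and 1.19 FPKM in the normal and 15.6, 17.5 and 15.7 FPKM in the obese libraries. Ltc4s, which makes leukotriene C4, was measured at 8.28, 6.27 and 9.29 FPKM in the normal and 57.95, 51.2 and 51.5 FPKM in the obese libraries. Hdc, the enzyme that makes histamine, was measured at 0.991, 1.32 and 1.47 FPKM in the normal and 12.2, 11.7 and 11.3 FPKM in the obese libraries. None of these ranges overlapped, and the rises on the log2 scale were 3.00 ± 0.054, 2.62 ± 0.11 and 2.50 ± 0.064 (limma adjusted p = 6.72e-16, 1.5e-11 and 3.49e-14). Fabp7, a fatty acid binding protein best known from brain, went from 46.6, 43.5 and 43.6 FPKM in the normal to 203, 207 and 202 FPKM in the obese libraries, a rise of 2.17. Chka, choline kinase of phosphatidylcholine synthesis, rose by 1.84 from 6.13 to 24.6 FPKM. Other genes among the 20 rises were Tor3a (2.68), Rprm (2.55), Arntl (2.44), Fau (2.26), Cdkn1a (2.12), Abhd3 (1.98), Litaf (1.97), Insig2 (1.96), Olfr12 (1.90), Kynu (1.86) and Nim1k (1.85), all as log2 differences. Fau encodes a ribosomal fusion protein with many genomic copies, and its standard error of 0.48 was the largest of the 20, so its level is uncertain.

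The 20 largest falls held secreted, lipid and sugar-handling genes. Nrg4 (ENSRNOG00000015149, chromosome 8, 59782974 to 59849490), a secreted EGF-family ligand, stood at 19.02, 21.9 and 19.9 FPKM in the normal and 1.02, 1.21 and 0.794 FPKM in the obese libraries. Pnpla3, a lipid droplet enzyme that remodels triglyceride, stood at 11.5, 10.9 and 12.7 FPKM in the normal and 0.584, 0.422 and 0.295 FPKM in the obese libraries. Inmt, an N-methyltransferase of indole amines, stood at 40.9, 46.2 and 46.3 FPKM in the normal and 4.16, 3.41 and 4.47 FPKM in the obese libraries. In each case all obese libraries lay far under all normal ones, and the group means differed 20.1-fold, 26.9-fold and 11.1-fold. The log2 differences were -3.41 ± 0.11 for Nrg4, -3.15 ± 0.094 for Pnpla3 and -3.18 ± 0.10 for Inmt, with limma adjusted p-values of 7.13e-13, 2.21e-13 and 5.63e-13.

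Kcnj15, a potassium channel, went from 11.98, 12.5 and 12.2 FPKM to 0.649, 0.543 and 0.370 FPKM. Slc2a5, the fructose transporter GLUT5, went from 11.9, 11.9 and 11.7 FPKM to 1.81, 1.59 and 2.38 FPKM. Ppp1r3g, which brings a phosphatase to glycogen, went from 6.41, 6.94 and 5.77 FPKM to 1.08, 0.569 and 0.623 FPKM. The obese values of all 3 genes lay under all normal values, and the log2 differences were -3.12, -2.14 and -2.08. Timeless (-2.11), a protein of the replication fork, Lmo7 (-1.83), a LIM domain protein at cell junctions, and Cyp3a9 (-2.00), a cytochrome P450, also fell. Onecut1, the hepatocyte factor HNF6, stood at 35.2, 35.4 and 34.7 FPKM in the normal and 7.89, 7.81 and 7.72 FPKM in the obese libraries, again without overlap.

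**Figure D2:**
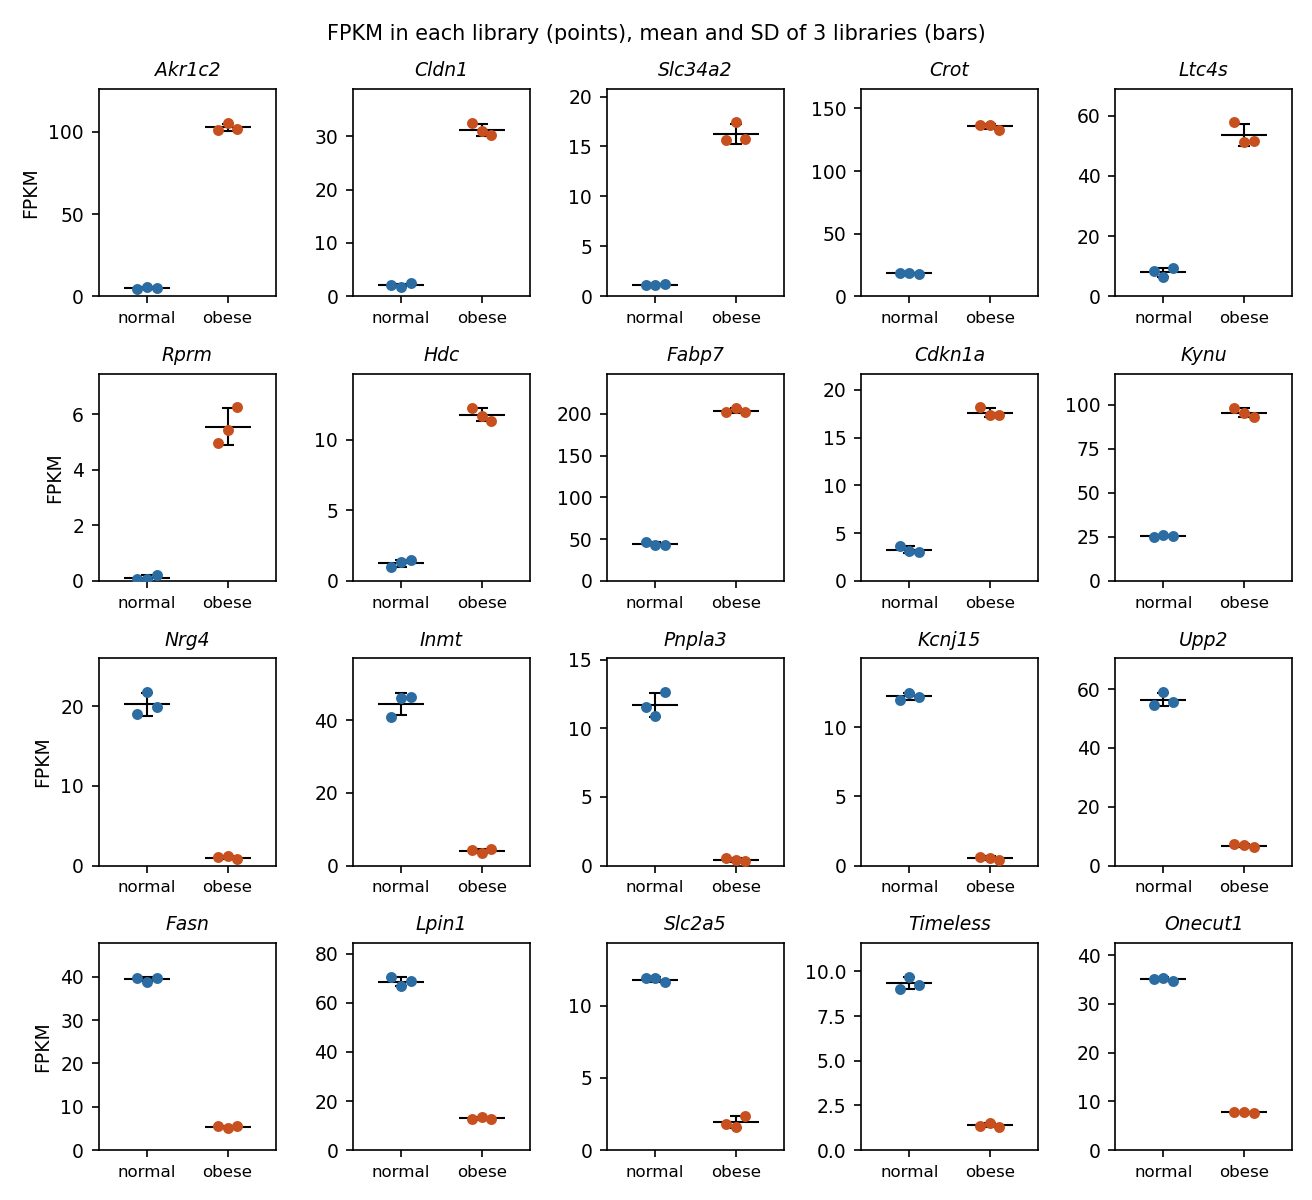
FPKM of 20 genes from the largest rises and falls is shown for each library (points) with the mean and SD of 3 libraries (bars), normal control in blue and obese control in orange, each panel starting at 0. The genes were chosen among those without overlap, so in each panel the 3 obese points lie on 1 side of the 3 normal points. Cldn1, for example, lies at 2.09 ± 0.305 and 31.3 ± 1.14 FPKM.

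The enzymes of fatty acid synthesis fell as a group. Of 11 members tested (1 more was under the filter), 10 fell and 1 did not pass (median log2 difference -1.73), against 28.4% of all genes lower and a median of 0.00. Acly, which splits citrate into cytosolic acetyl-CoA, stood at 108, 107 and 108 FPKM in the normal and 17.5, 16.6 and 16.97 FPKM in the obese libraries. Acaca, the acetyl-CoA carboxylase that makes malonyl-CoA, stood at 23.7, 23.9 and 23.8 FPKM in the normal and 3.297, 3.23 and 3.16 FPKM in the obese libraries. Fasn (ENSRNOG00000045636, chromosome 10, 109987735 to 110005901), which builds palmitate from malonyl-CoA, stood at 39.7, 38.9 and 39.6 FPKM in the normal and 5.49, 5.05 and 5.55 FPKM in the obese libraries. These 3 consecutive steps were lower in every obese library than in any normal one, 6.32-fold, 7.37-fold and 7.35-fold by group means, and their log2 differences were -2.59 ± 0.034, -2.55 ± 0.037 and -2.67 ± 0.052 (limma adjusted p = 3.66e-17, 1.28e-16 and 1.63e-15).

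The steps around them fell by less. Acss2, which activates acetate, fell (-1.91 ± 0.040) from 40.4 to 9.99 FPKM. Acacb, the carboxylase whose malonyl-CoA restrains carnitine palmitoyltransferase, fell (-1.96 ± 0.044) from 15.9 to 3.35 FPKM. Scd, the stearoyl-CoA desaturase, stood at 619.6, 621 and 615 FPKM in the normal and 243, 244 and 245 FPKM in the obese libraries, a log2 difference of -1.34 ± 0.020. Thrsp, an activator of lipogenesis that responds to thyroid hormone and carbohydrate, fell (-1.73 ± 0.014) from 824 to 248 FPKM. Suppliers of NADPH and citrate moved less, with malic enzyme (Me1) at -0.73 and the citrate carrier Slc25a1 at -0.41. Scd2, the brain-type desaturase, was the member that did not pass, at 1.58 ± 0.0955 and 1.58 ± 0.102 FPKM (mean ± SD, n = 3).

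The regulators of lipogenesis, counted together with the target gene Pklr, did not share a direction. Of 13 tested, 6 rose, 5 fell and 2 did not pass (median log2 difference 0.07), and under TPM 3 were higher and 5 lower. Insig2, which retains the SREBP complex in the endoplasmic reticulum, stood at 53.2, 52.5 and 50.8 FPKM in the normal and 210.0, 206 and 202 FPKM in the obese libraries. Insig1, its relative, stood at 117, 120.5 and 122 FPKM in the normal and 67.8, 69.9 and 68.1 FPKM in the obese libraries. Neither pair of ranges overlapped, and the paralogs moved in opposite directions, by 1.96 and -0.80 (limma adjusted p = 1.47e-16 and 2.17e-11). Srebf1, the SREBP-1 gene itself, was slightly higher at 38.1, 39.5 and 39.9 FPKM in the normal and 47.2, 44.7 and 43.8 FPKM in the obese libraries (log2 difference 0.20, limma adjusted p = 0.000443). Nr1h3, the oxysterol receptor LXRalpha, rose by 0.37. Pklr, the liver pyruvate kinase and a ChREBP target, fell (-1.75) from 52.9 to 14.99 FPKM. Mid1ip1, a relative of Thrsp, fell (-0.59).

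Polyunsaturated fatty acid synthesis was split. Of the 6 desaturases and elongases tested, 2 rose, 2 fell and 2 did not pass, and under TPM 1 was higher and 3 lower. Fads1 and Fads2, the delta-5 and delta-6 desaturases, fell (-1.23 ± 0.026 and -1.38 ± 0.024), Fads2 from 446, 457 and 454 FPKM to 173, 172 and 174 FPKM. Elovl5, the elongase of the same chain, went the other way, from 88.9, 89.7 and 91.6 FPKM to 187, 196 and 192 FPKM, a rise of 1.08 ± 0.022 (limma adjusted p = 2.24e-15). Each obese range was clear of its normal range.

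Triglyceride assembly was also mixed: of 23 members tested, 9 rose, 11 fell and 3 did not pass (median log2 difference -0.10). Gpam, which adds the initial acyl chain to glycerol-3-phosphate, stood at 8.21, 8.94 and 9.08 FPKM in the normal and 33.1, 32.1 and 33.2 FPKM in the obese libraries. Lpin1, the phosphatidate phosphatase that makes diacylglycerol, stood at 70.4, 67.01 and 68.7 FPKM in the normal and 12.7, 13.6 and 12.7 FPKM in the obese libraries. Gpam was higher and Lpin1 lower in every obese library, with log2 differences of 1.80 ± 0.045 and -2.32 ± 0.040. Along the same chain, the acyltransferases Agpat3 and Agpat2 rose by 1.12 and 0.59, Dgat2, which completes the triglyceride, rose by 0.49, and Lpin2 fell (-1.17). Plin2, a coat protein of lipid droplets, rose by 0.68 from 43.2 to 70.1 FPKM, and Plin3 fell (-0.66). Among lipases, Mgll, which cleaves monoglyceride, fell (-0.60), and Pnpla2, adipose triglyceride lipase, stood at 2.47, 4.56 and 6.93 FPKM in the normal and 1.195, 0.151 and 2.56 FPKM in the obese libraries. The Pnpla2 ranges overlapped and its call (limma adjusted p = 0.0234) rests on widely spread values.

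**Figure D3:**
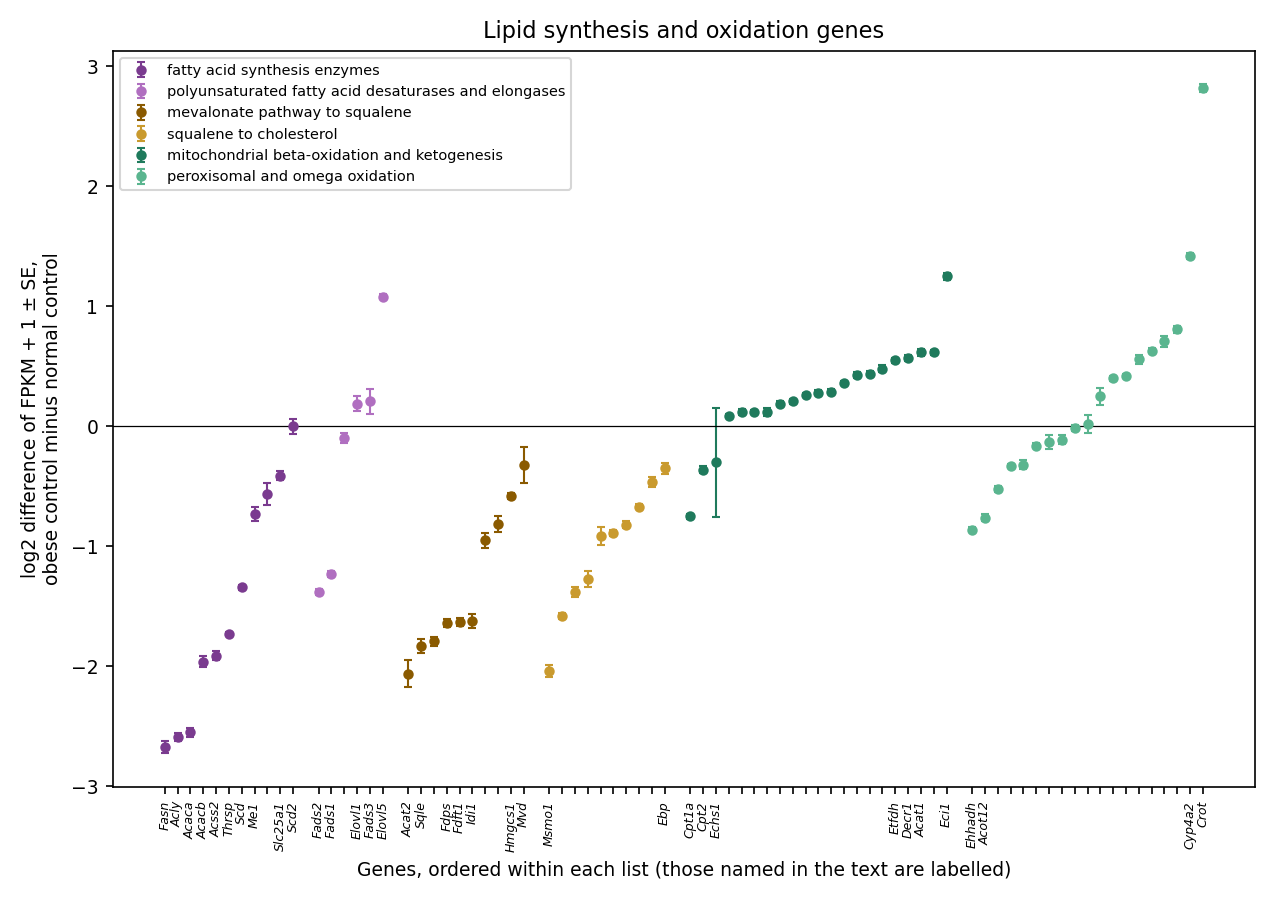
Log2 differences of FPKM + 1 (obese control minus normal control, points, with the SE of the limma fit) are drawn for the members of 6 lists of lipid synthesis and oxidation, ordered within each list, with names given for genes named in the text. The synthesis lists lie at or under 0 apart from Elovl1, Fads3 and Elovl5, and the mitochondrial oxidation list lies above 0 apart from Cpt1a, Cpt2 and Echs1.

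Cholesterol synthesis genes fell in nearly every step. Of 10 mevalonate steps, 9 fell and 1 did not pass (median log2 difference -1.63), and of 10 steps from squalene to cholesterol all 10 fell (median log2 difference -0.90). Fdps, which makes farnesyl pyrophosphate, stood at 82.9, 82.4 and 82.9 FPKM in the normal and 27.01, 25.3 and 25.4 FPKM in the obese libraries. Sqle, squalene epoxidase, stood at 17.97, 17.5 and 16.4 FPKM in the normal and 4.15, 3.72 and 4.57 FPKM in the obese libraries. Msmo1, a sterol demethylase, stood at 64.5, 63.2 and 60.9 FPKM in the normal and 15.3, 15.4 and 12.9 FPKM in the obese libraries. Every obese library was under every normal library for these genes, with log2 differences of -1.64 ± 0.035, -1.83 ± 0.062 and -2.04 ± 0.052 and limma adjusted p-values of 4.04e-15, 1.1e-12 and 3.04e-14. Acat2, cytosolic acetoacetyl-CoA thiolase at the head of the path, fell (-2.06). Idi1 and Fdft1, which make and join isoprenoid units, fell (-1.62 and -1.63). Hmgcs1 fell (-0.58) and Mvd, at -0.32, was the member that did not pass (limma adjusted p = 0.0867). The late enzymes ranged from -0.35 (Ebp) to -2.04 (Msmo1).

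The sterol sensing, uptake and export genes were mixed: of 13 tested 3 rose, 6 fell and 4 did not pass (median log2 difference 0.00). Stard4, a cytosolic sterol carrier, fell (-1.46 ± 0.040) from 19.4, 19.3 and 19.1 FPKM to 6.71, 5.87 and 6.59 FPKM without overlap, and Srebf2, the SREBP-2 gene, fell (-0.43). Scarb1, the HDL receptor, rose by 0.47 and Npc2, a lysosomal cholesterol carrier, by 0.43. Soat2, which esterifies cholesterol, and Abca1, which exports it to HDL, fell slightly (-0.28 and -0.11). Stard4 is a known SREBP-2 target.

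Most bile acid synthesis genes fell. Of 11 synthesis genes, 3 rose and 8 fell (median log2 difference -0.18). Cyp7a1, which limits the classical pathway, fell (-0.79 ± 0.032) from 34.2, 33.2 and 33.4 FPKM to 19.03, 19.1 and 18.8 FPKM. Cyp8b1, which directs the path to cholic acid, rose by 1.09 ± 0.021 from 112, 113 and 111 FPKM to 234, 235 and 246 FPKM. The ranges did not overlap for either enzyme, and they moved in opposite directions. Cyp7b1 and Akr1d1 fell (-0.97 and -0.80). Of 5 sensors, 4 fell and 1 did not pass, with Nr0b2 (SHP), the repressor of Cyp7a1, at -0.65 and Nr1h4 (FXR) at -0.32. Of 14 transporters, 6 rose, 7 fell and 1 did not pass, and Abcb4, which flips phosphatidylcholine into bile, stood out at 4.36, 4.57 and 4.59 FPKM in the normal and 13.4, 13.3 and 13.7 FPKM in the obese libraries, a rise of 1.39 ± 0.029. The bile salt pump Abcb11 (-0.23) and the uptake carrier Slc10a1 (-0.27) fell slightly.

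Most genes of mitochondrial fatty acid oxidation rose, and that of its entry step fell. Of 21 members, 18 rose, 2 fell and 1 did not pass (median log2 difference 0.28), and under TPM 14 were higher and 2 lower. Eci1, the isomerase for unsaturated chains, stood at 141, 136 and 141 FPKM in the normal and 334, 320.5 and 344 FPKM in the obese libraries. Cpt1a, the carnitine palmitoyltransferase that admits acyl groups, stood at 132, 133 and 132 FPKM in the normal and 78.6, 77.2 and 79.1 FPKM in the obese libraries. Eci1 was higher and Cpt1a lower in every obese library, with log2 differences of 1.25 ± 0.032 and -0.75 ± 0.021 (limma adjusted p = 3.05e-14 and 7.99e-14). Acat1, the mitochondrial acetoacetyl-CoA thiolase, rose by 0.62, Decr1 by 0.57 and the electron acceptor Etfdh by 0.55. Cpt2, the inner membrane partner of Cpt1a, fell (-0.36).

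Peroxisomal and omega oxidation had no common direction: of 19 tested 9 rose, 7 fell and 3 did not pass (median log2 difference 0.02), and under TPM 8 were higher and 9 lower. Beside Crot, the omega hydroxylase Cyp4a2 rose from 230.2, 225 and 225 FPKM to 590.2, 622 and 615 FPKM (1.42 ± 0.028). Ehhadh, the bifunctional enzyme, fell from 204, 201 and 200.4 FPKM to 108, 112 and 112 FPKM (-0.86 ± 0.020), and Acot12, a cytosolic acetyl-CoA hydrolase, fell (-0.76). Of 12 PPARalpha and fasting targets 8 rose and 4 fell. Ppara itself fell from 30.98, 28.9 and 30.02 FPKM to 16.7, 15.9 and 15.4 FPKM, and Ppargc1a, its coactivator, from 1.43, 1.52 and 1.37 FPKM to 0.490, 0.357 and 0.365 FPKM. Vnn1 rose by 1.04, Fabp1, the abundant fatty acid carrier, by 0.50 and Fgf21, a fasting hormone, by 0.43, while Angptl4 fell (-0.65) and Pdk4 (-0.42). None of the ranges of Ppara, Ppargc1a, Cyp4a2 and Ehhadh overlapped.

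Lipoprotein genes rose more often than they fell. Of 16 apolipoprotein and VLDL assembly genes, 10 rose, 5 fell and 1 did not pass (median log2 difference 0.18), and under quantile scaling 5 rose and 5 fell. Apoa1, the main HDL protein, stood at 882, 897 and 895 FPKM in the normal and 1905, 1893 and 1922 FPKM in the obese libraries, a rise of 1.10 ± 0.020 with no overlap. Apob, the VLDL scaffold, rose by 0.18, and Apof fell (-0.56). Of 14 genes of lipoprotein remodelling and lipid uptake, 11 rose, 2 fell and 1 did not pass. Lpl, lipoprotein lipase, rose from 1.16, 1.01 and 0.919 FPKM to 3.02, 3.24 and 3.09 FPKM (1.02 ± 0.065). Fabp5, the epidermal fatty acid binding protein, fell from 24.7, 25.1 and 23.5 FPKM to 8.601, 10.1 and 8.92 FPKM (-1.32 ± 0.068). Fabp2, the intestinal form, rose by 1.25 ± 0.23 from 1.06, 1.08 and 1.14 FPKM to 4.299, 4.57 and 3.13 FPKM.

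Most genes of glycolysis, fructose and glycogen fell. Of 21 genes of glycolysis, fructose and glycogen, 5 rose, 15 fell and 1 did not pass (median log2 difference -0.24). Gys2, liver glycogen synthase, stood at 56.5, 56.1 and 57.6 FPKM in the normal and 22.1, 20.4 and 19.8 FPKM in the obese libraries. Slc2a2, the glucose transporter GLUT2, stood at 278, 274 and 278 FPKM in the normal and 104, 106 and 109 FPKM in the obese libraries. Gbe1, the glycogen branching enzyme, stood at 130.0, 125 and 126 FPKM in the normal and 58.1, 55.9 and 57.4 FPKM in the obese libraries. All obese values were under all normal values, and the log2 differences were -1.41 ± 0.043, -1.37 ± 0.022 and -1.14 ± 0.026 (limma adjusted p = 3.19e-13, 3.09e-16 and 1.02e-14). Pfkfb1, which sets the level of fructose-2,6-bisphosphate, fell (-1.33), as did Gpi (-1.02). Against them, Gckr, a regulatory protein of sugar metabolism, rose from 27.2, 26.3 and 26.7 FPKM to 74.8, 74.8 and 77.5 FPKM (1.47 ± 0.040), and Ldha, lactate dehydrogenase A, from 389.6, 391 and 388 FPKM to 839, 818 and 816 FPKM (1.08 ± 0.016).

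Of 9 gluconeogenesis genes, 2 rose and 7 fell (median log2 difference -0.34). G6pc, glucose-6-phosphatase, fell (-0.87 ± 0.034) from 159, 156 and 157 FPKM to 88.4, 85.9 and 83.2 FPKM. Its transporter Slc37a4 fell (-0.78), and Pck1, the cytosolic PEPCK, at -0.18. Pck2, the mitochondrial form, rose by 0.55 from 3.17 to 5.08 FPKM. Of 18 genes of insulin and IGF signalling, 3 rose, 11 fell and 4 did not pass (median log2 difference -0.31). Pik3r1, a regulatory subunit of PI 3-kinase, fell from 29.9, 28.98 and 30.5 FPKM to 14.2, 14.5 and 14.98 FPKM (-0.99 ± 0.030). Sik1, a kinase induced by glucagon, fell from 9.85, 10.1 and 10.3 FPKM to 3.96, 3.97 and 3.95 FPKM (-1.16 ± 0.052). The insulin receptor Insr fell (-0.49), Foxo3 (-0.87), and the binding proteins Igfbp1 and Igfbp2 (-0.60 and -0.90). Igfbp3 rose by 0.64 and Irs1, at 0.05, did not pass (limma adjusted p = 0.452).

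Nitrogen disposal was lower in most members. Of 11 urea cycle and glutamine genes, 1 rose, 9 fell and 1 did not pass (median log2 difference -0.34). Ass1, argininosuccinate synthase, stood at 994, 976 and 986 FPKM in the normal and 553, 547 and 563 FPKM in the obese libraries, a log2 difference of -0.83 ± 0.020 with no overlap. Gls2, liver glutaminase, fell (-0.65) and Cps1, which commits ammonia to the cycle, at -0.37, while Asl rose by 0.18. Of 35 amino acid breakdown genes, 8 rose, 24 fell and 3 did not pass (median log2 difference -0.23). Sds, serine dehydratase, stood at 233, 234 and 234 FPKM in the normal and 84.8, 83.04 and 88.5 FPKM in the obese libraries. Gpt, alanine aminotransferase, stood at 72.1, 70.2 and 72.01 FPKM in the normal and 29.5, 30.1 and 31.6 FPKM in the obese libraries. Kynu, kynureninase of tryptophan breakdown, stood at 24.8, 26.3 and 25.5 FPKM in the normal and 98.1, 95.2 and 92.97 FPKM in the obese libraries. The obese libraries were lowest for Sds and Gpt and highest for Kynu without overlap, at -1.44, -1.21 and 1.86 (limma adjusted p = 3.24e-16, 3.17e-13 and 6.94e-15). Among the other members that rose, Cth, which makes cysteine, rose by 1.22 with a wide obese range of 240.4, 188 and 177 FPKM, Hgd of tyrosine breakdown by 1.01 and Gldc, the glycine cleavage decarboxylase, by 0.83. Other kynurenine pathway members fell, with Kmo at -0.49, Haao at -0.36 and Acmsd at -0.61.

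Methyl group handling also moved down. Of 14 methionine cycle and methyl transfer genes, 1 rose, 11 fell and 2 did not pass (median log2 difference -0.49). Beside Inmt, Chdh, which turns choline into betaine aldehyde, fell from 123, 124 and 124 FPKM to 52.5, 52.5 and 53.9 FPKM (-1.20 ± 0.030). Sardh, sarcosine dehydrogenase, fell (-0.96), Bhmt, which uses betaine to remake methionine, at -0.49 and Mat1a, which makes S-adenosylmethionine, at -0.50.

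Drug and steroid metabolism changed member by member. Of 25 cytochromes P450 of families 1 to 3, 7 rose, 14 fell and 4 did not pass (median log2 difference -0.20). Cyp2c11, a male-specific steroid hydroxylase of rat liver, stood at 1361, 1315 and 1339 FPKM in the normal and 545, 523 and 512 FPKM in the obese libraries. Cyp2c7, a relative that hydroxylates retinoids, stood at 1218, 1240.0 and 1221 FPKM in the normal and 2068, 2040.0 and 2014 FPKM in the obese libraries. Por, the reductase that feeds electrons to microsomal P450s, stood at 321, 325 and 323 FPKM in the normal and 109, 107 and 109 FPKM in the obese libraries. Cyp2c11 and Por were lower and Cyp2c7 higher in every obese library, at -1.34, -1.57 and 0.73 (limma adjusted p = 6.98e-12, 5.3e-16 and 6.07e-13). Reads of P450 genes can be shared between close copies, so single members of these families are uncertain.

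Of 17 genes of P450 support, xenobiotic receptors and heme synthesis, 4 rose, 7 fell and 6 did not pass. Alas1, which limits heme synthesis, fell from 143, 139 and 139.6 FPKM to 69.9, 70.7 and 69.1 FPKM, 2.01-fold by group means. Hmox1, which degrades heme, rose from 10.98, 10.6 and 10.2 FPKM to 21.8, 22.9 and 23.3 FPKM (1.03 ± 0.043). Arnt, the partner of the dioxin receptor, fell (-1.12) and the receptor Ahr rose by 0.60. Of 33 conjugation enzymes 12 rose, 12 fell and 9 did not pass (under TPM 8 were higher and 18 lower), led by Gstt3 at -1.77 and Ephx2, soluble epoxide hydrolase, at 1.29. Of 17 NRF2 antioxidant genes 7 rose, 7 fell and 3 did not pass, and under TPM 7 were higher and 10 lower. Gclm of glutathione synthesis fell (-1.19) and catalase (Cat) (-0.49), and Gpx1 rose by 0.65.

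Of 22 steroid and aldo-keto reductases 7 rose, 9 fell and 6 did not pass, so the rise of Akr1c2 was not shared by the family: Akr1c1 (-0.09) and Akr1c3 (-0.10) did not pass, and Akr1c14 fell (-0.31). Akr1b7, another reductase, went from 0.0272, 0.194 and 0.0268 FPKM to 0.796, 0.780 and 0.813 FPKM, a rise of 0.73 at a very low level. Hsd17b2, which inactivates estradiol and testosterone, fell from 813, 808 and 801 FPKM to 395, 383 and 389 FPKM (-1.05 ± 0.018). Of 17 alcohol and aldehyde dehydrogenases 5 rose, 10 fell and 2 did not pass. Aldh1a1, which makes retinoic acid, rose from 26.7, 27.03 and 27.01 FPKM to 74.4, 72.8 and 73.01 FPKM (1.42 ± 0.024). Adh5, which clears formaldehyde, fell from 109, 107 and 106 FPKM to 46.4, 44.5 and 45.7 FPKM (-1.22 ± 0.025). Of 10 carboxylesterases 2 rose, 3 fell and 5 did not pass, with Ces1d at -0.75, and of 11 acyl-CoA synthetases 2 rose, 7 fell and 2 did not pass.

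Growth hormone signalling rose in most members: of 12, 9 rose, 1 fell and 2 did not pass (median log2 difference 0.34). Prlr, the prolactin receptor, stood at 8.42, 8.35 and 8.38 FPKM in the normal and 17.4, 16.96 and 16.9 FPKM in the obese libraries. Cux2, a factor of female-type rat liver, stood at 0.438, 0.561 and 0.432 FPKM in the normal and 2.04, 1.91 and 2.03 FPKM in the obese libraries. Stat5b, which carries the growth hormone pulse to the nucleus, stood at 6.64, 6.195 and 6.79 FPKM in the normal and 10.6, 10.6 and 10.4 FPKM in the obese libraries. These 3 were higher in every obese library, by 0.95 ± 0.063, 1.02 ± 0.075 and 0.61 ± 0.055, and the receptor Ghr fell (-0.43 ± 0.023) from 214 to 159 FPKM. Bcl6, a repressor active in male liver, rose by 0.79, so the list holds genes of both sex types and its count gives no direction of hormone action.

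Of 10 thyroid hormone genes 4 rose, 5 fell and 1 did not pass: the receptor Thrb fell (-0.64) and Dio1, which makes active hormone, rose by 0.31. Of 13 glucocorticoid targets 2 rose, 9 fell and 2 did not pass (median log2 difference -0.19). Fkbp5, a chaperone of the receptor and a strong target, fell from 14.00, 14.3 and 14.1 FPKM to 6.66, 6.44 and 6.05 FPKM (-1.04 ± 0.069), while the metallothioneins Mt1 and Mt2A rose by 0.44 and 0.55. Of 18 secreted hepatokines 10 rose, 6 fell and 2 did not pass, and under TPM 8 were higher and 8 lower. Inhbc, an activin subunit made by hepatocytes, rose from 20.02, 21.2 and 21.6 FPKM to 57.9, 59.2 and 59.9 FPKM (1.45 ± 0.028), and Inhba, another, rose by 1.13. Angptl6 rose by 0.83 and Hgf by 0.64, while Tsku, tsukushi, fell (-0.68) beside the much larger fall of Nrg4.

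The circadian clock showed opposed arms. BMAL1 (the product of Arntl) pairs with CLOCK or NPAS2 to switch on Per, Cry, Nr1d and Dbp genes, and the PER, CRY and NR1D proteins hold the activators back. Of 16 core genes tested, 3 rose, 11 fell and 2 did not pass (median log2 difference -0.54), and the 3 that rose were the activators. Arntl (ENSRNOG00000014448, chromosome 1, 178039063 to 178137465) stood at 0.259, 0.237 and 0.395 FPKM in the normal and 6.71, 5.78 and 5.67 FPKM in the obese libraries. Npas2 stood at 0.0900, 0.119 and 0.133 FPKM in the normal and 2.62, 2.48 and 2.76 FPKM in the obese libraries. Clock stood at 3.21, 3.09 and 3.33 FPKM in the normal and 5.304, 5.14 and 5.41 FPKM in the obese libraries. Arntl and Npas2 were under 1 FPKM in all normal libraries and over 2 FPKM in all obese ones, and the log2 difference was 2.44 ± 0.078 for Arntl and 0.58 ± 0.042 for Clock (adjusted p from limma 5.43e-13 and 1.22e-08, and 1.3e-10 for Npas2). The log2(FPKM + 1) scale understates the change of such low genes, and the group means differed 20.4-fold for Arntl and 22.99-fold for Npas2.

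The repressors were lower. Per3 stood at 13.6, 14.1 and 13.5 FPKM in the normal and 2.22, 2.34 and 2.31 FPKM in the obese libraries. Cry1 stood at 5.72, 5.39 and 6.29 FPKM in the normal and 2.64, 2.16 and 1.93 FPKM in the obese libraries. Nr1d2 stood at 27.1, 26.8 and 25.9 FPKM in the normal and 12.98, 12.98 and 12.3 FPKM in the obese libraries. None of these ranges overlapped, and the group means were 5.998-fold, 2.58-fold and 2.08-fold lower. Per2, Cry2 and Per1 fell (-0.90, -0.79 and -0.66), Bhlhe40, a repressor of CLOCK, at -1.58, Ciart, another, at -1.62, and Nr1d1 (REV-ERBalpha) (-0.42). Rora and Csnk1e, at -0.18 and -0.08, did not pass, and Bhlhe41 was under the filter.

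The output genes listed were mostly lower too: of 14 tested, 3 rose and 11 fell (median log2 difference -1.32). Among all genes 26.7% rose and 28.4% fell. Dbp, a PAR bZIP factor driven directly by the clock, stood at 149, 153 and 155 FPKM in the normal and 50.3, 48.4 and 50.9 FPKM in the obese libraries. Its relatives Hlf and Tef fell (-1.50 and -0.94). Upp2, uridine phosphorylase 2, stood at 54.7, 59.1 and 55.5 FPKM in the normal and 7.25, 6.85 and 6.18 FPKM in the obese libraries. Both genes were far lower in all obese libraries, with log2 differences of -1.59 ± 0.027 and -2.89 ± 0.057 (limma adjusted p = 3.42e-16 and 1.96e-15). Usp2 fell (-1.77), Noct, a rhythmic phosphatase, at -1.56, Wee1, a mitotic brake, at -1.52 and Nampt, which makes NAD, at -1.23. The 3 output genes that rose were Cdkn1a, Avpr1a (from 23.2 to 82.2 FPKM) and, by 0.15, Nfil3, which opposes Dbp. The labels give an age and no clock time, so a shift of phase and a change of mean level cannot be told apart.

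**Figure D4:**
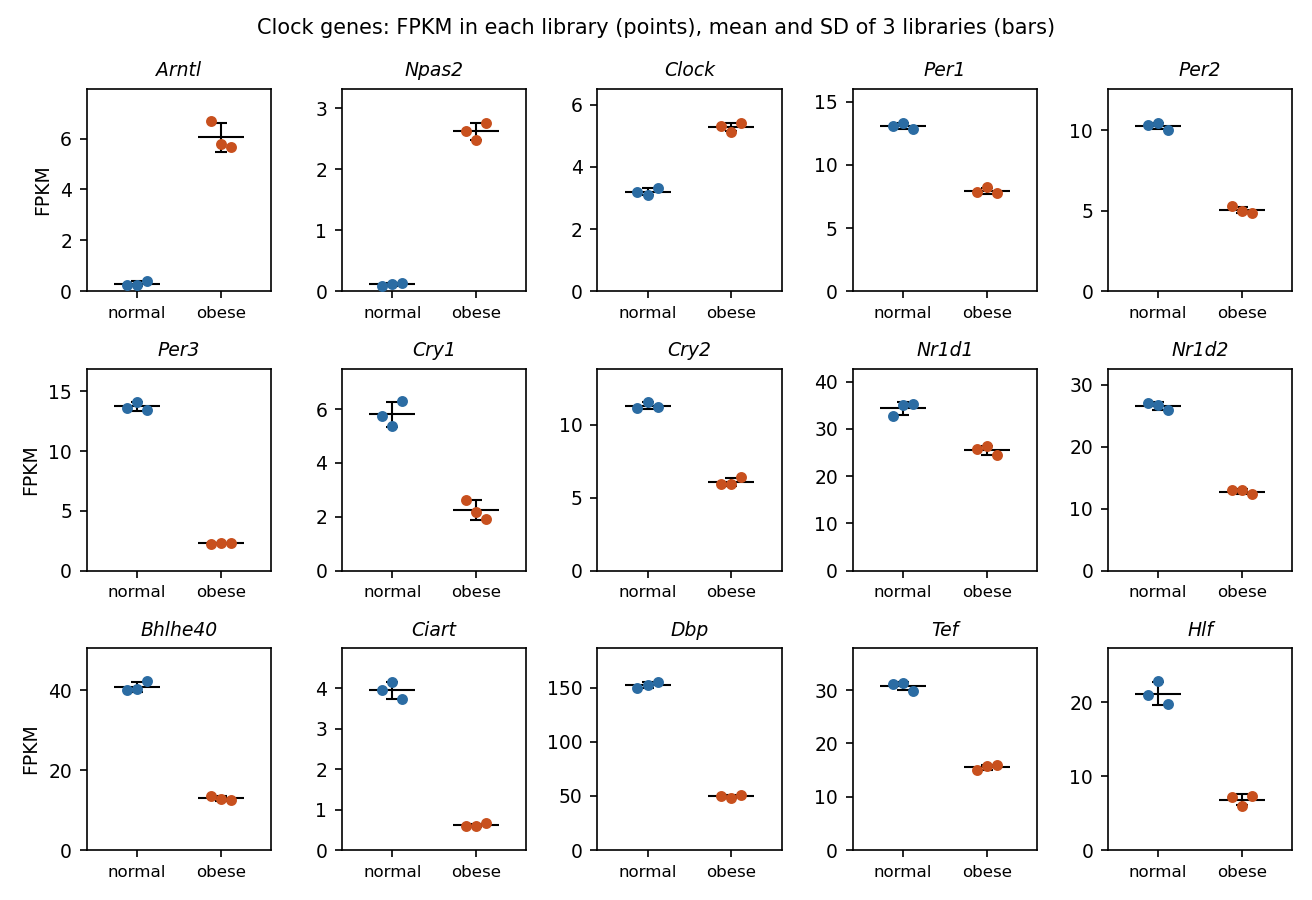
FPKM of 15 clock and clock output genes is shown for each library (points) with the mean and SD of 3 libraries (bars), normal control in blue and obese control in orange, each panel starting at 0. Arntl, Npas2 and Clock are higher in the obese control, and the other 12 genes are lower.

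CLOCK and BMAL1 bind the E-box CACGTG, which reads the same on both strands. In windows of 250 bases before to 50 bases after the transcript start (RefSeq, build GRCr8) it occurred in 6.65% of all windows, in 9.69% of the 8056 windows matched to genes tested here, and in 3 of the 13 matched windows of core clock genes (23.1%). Those were Ciart, Bhlhe40 and Bhlhe41. Ciart is shown because its window held 3 matches; E-boxes are in capitals (chr2:186112247-186112366, minus strand, bases 120 to 1 before the start).
Ciart: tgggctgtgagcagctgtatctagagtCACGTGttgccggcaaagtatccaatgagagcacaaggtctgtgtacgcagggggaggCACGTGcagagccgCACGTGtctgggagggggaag

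Chaperones of the endoplasmic reticulum did not move as a group. Of 26 members, 13 rose, 6 fell and 7 did not pass (median log2 difference 0.19), and under TPM 12 were higher and 10 lower. Creld2, a disulfide isomerase-like protein of this compartment, stood at 13.7, 14.7 and 16.1 FPKM in the normal and 52.7, 51.4 and 52.8 FPKM in the obese libraries. Hyou1, a large HSP70 relative, stood at 30.99, 29.9 and 29.1 FPKM in the normal and 66.8, 64.9 and 63.5 FPKM in the obese libraries. Hspa5, the central chaperone BiP, stood at 224, 223 and 225 FPKM in the normal and 389.6, 390.3 and 389 FPKM in the obese libraries. Every obese library was above every normal library, with rises of 1.75 ± 0.077, 1.09 ± 0.039 and 0.80 ± 0.015 (limma adjusted p = 2.29e-11, 2.16e-12 and 9.17e-16). Sdf2l1 rose by 0.94, Manf by 0.76, Hsp90b1 (GRP94) by 0.64, the disulfide isomerase Pdia4 by 0.62 and calreticulin (Calr) by 0.45. The members that fell were led by the degradation factors Edem1 (-1.14) and Herpud1 (-0.70) and the cochaperone Dnajb9 (-0.74).

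Of 21 stress response factors 6 rose, 7 fell and 8 did not pass. Xbp1, whose spliced form switches on many of these genes, stood at 296, 299 and 296 FPKM in the normal and 132, 132 and 127 FPKM in the obese libraries, a log2 difference of -1.18 ± 0.029. Atf6, the membrane-bound sensor, fell (-0.48) and Atf4, a translation-controlled factor, at -0.14. Ddit3 (CHOP) rose by 0.33, Asns, an ATF4 target, by 0.36 and Sesn2 by 0.45. The table gives a single value per gene, so splicing of Xbp1 was not measured.

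The endoplasmic reticulum stress element, CCAAT, 9 free bases and CCACG (either strand, containing the CCAAT box), was found in 8 of 21 chaperone windows (38.1%), against 0.0765% of all windows and 15 of the 8056 tested windows (0.186%). The 8 genes did not move alike: Creld2, Hspa5, Hsp90b1, Calr and Dnajc3 (0.12, but -0.01 under TPM) rose, and Canx (-0.04), Ero1b (0.05) and Derl3 (0.30) did not pass. Xbp1, which fell, also held a match. Stretches of 5 windows are printed to show the element in genes that rose and in Xbp1, with its bases in capitals; they lie at chr3:38452896-38453015 (plus) for Hspa5, chr7:23012294-23012493 (minus) for Hsp90b1, chr7:121789184-121789303 (plus) for Creld2, chr19:40213117-40213236 (plus) for Calr and chr14:84604503-84604622 (plus) for Xbp1 in GRCr8. Where the capitals begin with CGTGG, the element is on the opposite strand.
Hspa5: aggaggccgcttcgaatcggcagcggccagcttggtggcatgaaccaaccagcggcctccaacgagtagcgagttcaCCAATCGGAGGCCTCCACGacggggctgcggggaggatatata
Hsp90b1: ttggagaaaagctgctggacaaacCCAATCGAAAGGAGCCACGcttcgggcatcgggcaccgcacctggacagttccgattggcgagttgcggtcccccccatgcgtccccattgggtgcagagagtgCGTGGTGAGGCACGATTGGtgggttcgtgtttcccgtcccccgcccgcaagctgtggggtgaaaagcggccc
Creld2: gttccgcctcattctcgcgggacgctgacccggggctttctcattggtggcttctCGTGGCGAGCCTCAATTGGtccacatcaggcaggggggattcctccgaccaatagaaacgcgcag
Calr: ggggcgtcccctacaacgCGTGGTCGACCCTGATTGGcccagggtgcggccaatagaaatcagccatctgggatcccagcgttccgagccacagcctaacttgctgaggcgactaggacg
Xbp1: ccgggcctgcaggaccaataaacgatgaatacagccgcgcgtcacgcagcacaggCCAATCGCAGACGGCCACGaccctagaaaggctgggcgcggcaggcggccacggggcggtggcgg

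Cytosolic heat shock chaperones rose more often than they fell: of 23, 13 rose, 4 fell and 6 did not pass (median log2 difference 0.19). Fkbp4, a cochaperone of steroid receptors, stood at 34.3, 33.03 and 32.6 FPKM in the normal and 72.00, 73.2 and 72.8 FPKM in the obese libraries. Hsph1 (HSP110) stood at 16.7, 17.6 and 17.7 FPKM in the normal and 36.6, 38.1 and 38.9 FPKM in the obese libraries. Hspa8, the constitutive HSC70, stood at 128, 130.4 and 132 FPKM in the normal and 224, 227 and 215 FPKM in the obese libraries. All obese values were above all normal values, by 1.10 ± 0.023, 1.08 ± 0.036 and 0.77 ± 0.039. Hsp90ab1 and its cochaperone Stip1 rose by 0.60 and 0.60, and Hspb1 by 0.73. The mitochondrial partners split, Hspe1 (HSP10) rising by 0.41 and Hspd1 (HSP60) falling (-0.22), and Bag3 fell (-0.39). Stress-inducible Hspa1b, at -0.21, and the transcription factor Hsf1, at -0.03, did not pass. Hsp90aa1 was erratic, at 2.89, 1.68 and 7.18 FPKM in the normal and 3.85, 3.51 and 21.5 FPKM in the obese libraries, with overlapping ranges.

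The heat shock element, GAA, 2 free bases, TTC, 2 free bases and GAA (either strand), was found in 6 of 18 windows of this list (33.3%), against 0.736% of all windows and 0.397% of the tested ones. Of these, Hsph1, Hspa8, Hspe1, Chordc1 (0.19) and Dnaja1 (0.08) rose and Hspd1 fell. The matched bases of Hspd1 and Hspe1 are reverse complements of each other, so both windows may hold the same element. Under TPM Dnaja1 was at -0.04 and Chordc1 at 0.08, neither past the threshold, and both lost their calls without some single libraries. The stretches for Hsph1 (chr12:10427248-10427367, plus) and Hspe1 (chr9:64084207-64084326, plus) are shown for a large and a small rise, with the element in capitals. In Hspe1 a pair of matches on opposite strands overlap.
Hsph1: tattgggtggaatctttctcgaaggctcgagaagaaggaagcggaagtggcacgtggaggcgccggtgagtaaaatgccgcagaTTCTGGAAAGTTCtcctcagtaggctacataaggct
Hspe1: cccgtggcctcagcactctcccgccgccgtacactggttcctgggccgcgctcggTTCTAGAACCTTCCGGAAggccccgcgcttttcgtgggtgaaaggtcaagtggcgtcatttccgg

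For the sterol genes, the sterol regulatory element 1 (ATCAC followed directly by CCCAC) was searched on both strands and was in none of the 6 mevalonate or 9 later windows, in none of the 8056 windows of genes tested here, and in 0.102% of all windows. The CCAAT box was in 5 of 6 and 7 of 9 of these windows, against 37.7% of all windows. A match or its absence describes the letters of these windows only.

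Growth arrest genes were mixed, with a few large rises. Of 14 p53 and growth arrest genes 7 rose, 2 fell and 5 did not pass (median log2 difference 0.24). Cdkn1a, the cyclin-dependent kinase inhibitor p21, stood at 3.69, 3.13 and 3.03 FPKM in the normal and 18.2, 17.4 and 17.3 FPKM in the obese libraries. Gadd45g, a stress-induced growth arrest gene, stood at 22.5, 24.9 and 23.2 FPKM in the normal and 75.5, 76.5 and 79.9 FPKM in the obese libraries. Rprm, reprimo, an arrest gene outside the list, stood at 0.0814, 0.0552 and 0.214 FPKM in the normal and 4.95, 5.42 and 6.28 FPKM in the obese libraries. Each gene was higher in all obese libraries, by 2.12 ± 0.086, 1.68 ± 0.049 and 2.55 ± 0.093. Other p53 targets moved less: Bax rose by 0.58, Sesn1 fell (-0.51) and Mdm2 fell (-0.20). Of 18 cell cycle genes 11 were under the filter, and of the 7 tested 3 fell and 4 did not pass, Wee1 most. Among the 11 under the filter, 6 were higher in every obese than in any normal library, 3 were lower and the others overlapped, all without a test. Such separation was common, as 62.5% of the tested genes did not overlap, and its share among all genes under the filter was not counted. Mki67, a marker of dividing cells, was listed at 0.179, 0.127 and 0.176 FPKM in the normal and 0.434, 0.563 and 0.572 FPKM in the obese libraries. Cdk1, the mitotic kinase, was listed at 0.136, 0.361 and 0.134 FPKM and at 0.912, 1.11 and 0.780 FPKM, and Ccne1, cyclin E1, at 1.10, 0.942 and 0.931 FPKM and at 0.439, 0.348 and 0.358 FPKM.

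Of 17 junction genes 8 rose, 4 fell and 5 did not pass, and under TPM 8 were higher and 7 lower. Beside Cldn1, its binding partner Tjp3 rose from 1.11, 0.862 and 1.01 FPKM to 4.84, 4.33 and 4.67 FPKM (1.49 ± 0.068). Cldn2, a cation-selective claudin, rose from 12.8, 12.6 and 12.7 FPKM to 25.98, 26.5 and 24.9 FPKM, Cldn14 by 0.84, E-cadherin (Cdh1) by 0.58 and connexin 32 (Gjb1) by 0.32. Cldn3, the most abundant claudin measured, fell (-0.22), and Tjp1 and Ocln did not pass (-0.05 and -0.05). Of 14 hepatocyte transcription factors 4 rose, 8 fell and 2 did not pass. Beside Onecut1, its relative Onecut2 fell (-0.40), Foxa2 (-0.53) and Cebpa (-0.30). Hnf4a fell by little (-0.05), a call that was lost in some other settings. Atf5, a stress factor abundant in liver, rose from 181, 186 and 178 FPKM to 550.2, 552 and 542 FPKM (1.59 ± 0.020).

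Acute phase and complement genes rose in the main by small amounts. Of 19 acute phase genes 13 rose, 3 fell and 3 did not pass (median log2 difference 0.29). Of 34 complement and coagulation genes 25 rose, 7 fell and 2 did not pass (median log2 difference 0.21). The shares that rose were 68.4% and 73.5%, against 26.7% of all genes. Hpx, the heme carrier hemopexin, stood at 3467, 3535 and 3487 FPKM in the normal and 6134, 6125 and 6142 FPKM in the obese libraries. Lbp, which presents endotoxin to macrophages, stood at 29.7, 29.3 and 27.5 FPKM in the normal and 68.7, 70.03 and 71.1 FPKM in the obese libraries. Both were higher in all obese libraries, by 0.81 ± 0.012 and 1.25 ± 0.038. The fibrinogen chains Fga, Fgb and Fgg rose by 0.51, 0.41 and 0.45, and Cebpd, a factor that drives such genes, by 0.88. C-reactive protein (Crp) and Serpina3n did not pass, at -0.02 and -0.01. Hamp, the iron hormone hepcidin, fell from 1622, 1633 and 1564 FPKM to 1053, 1030.0 and 1052 FPKM (-0.62 ± 0.027).

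Of 14 iron genes 7 rose, 3 fell and 4 did not pass, and under TPM 4 were higher and 5 lower. Ftl1, ferritin light chain, rose from 1538, 1618 and 1603 FPKM to 3134, 2988 and 3039 FPKM (0.94 ± 0.024), with reads that could be shared with its pseudogenes. Hjv, hemojuvelin, which acts above hepcidin, rose by 0.77, and Ireb2, the iron regulatory protein 2, fell (-0.71). Of 33 interferon-induced genes 16 rose, 9 fell and 8 did not pass, without a common direction among the sensors and effectors: Ifit1 rose by 1.01 from 0.341 to 1.698 FPKM, Irf1 by 0.79 and Psmb9 by 0.80, while Stat2 fell (-0.71) and Usp18 (-0.59). Of 13 inflammatory genes 5 rose, 1 fell and 7 did not pass. Cxcl1, a neutrophil chemokine, rose from 2.04, 1.82 and 1.96 FPKM to 6.19, 5.77 and 6.48 FPKM (1.28 ± 0.096), and Il1b by 0.60. Tnf and Il6 were listed at 0 in all 6 libraries, as was Fth1, so their levels are unknown.

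Mitochondrially encoded transcripts, kept here as a sign of RNA quality, rose in 11 of 13 members (median log2 difference 0.35), in 8 of 13 under TPM and in 3 of 13 under quantile scaling. Cytochrome b (CYTB) stood at 5783, 6438 and 6085 FPKM in the normal and 7991, 8396 and 7882 FPKM in the obese libraries. Its ranges did not overlap, and its reads are part of the share of mitochondrial reads given above. Of 44 nuclear subunits of the same chain 21 rose, 8 fell and 15 did not pass, and under TPM 14 were higher and 16 lower. Of 31 proteasome subunits 22 rose, 1 fell and 8 did not pass, and under TPM 5 were higher and 7 lower, so no direction holds for these groups across scalings. Of 20 immediate early genes, which respond to handling and stress, 8 rose, 6 fell and 6 did not pass, and under TPM 5 were higher and 7 lower, with Egr1 at -0.76 and Ier2 at 0.60. Their part in the other differences was not tested.

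Most tested markers of Kupffer cells (93.3%), sinusoidal endothelium (72.7%) and stellate cells and matrix (67.7%) were higher in the obese livers. Among all genes 26.7% were higher. Some defining markers of the endothelial and stellate cells did not rise, as given below. In a bulk sample more cells of a type and more RNA per cell cannot be told apart. Of 15 Kupffer cell markers tested 14 rose and 1 did not pass (median log2 difference 0.66), and their summed level was 198.7 to 201.1 FPKM in the normal and 329.6 to 340.4 FPKM in the obese libraries. Vsig4, a complement receptor of resident macrophages, stood at 7.03, 7.93 and 7.33 FPKM in the normal and 14.1, 14.2 and 14.4 FPKM in the obese libraries. Clec4f, the lectin that defines rodent Kupffer cells, stood at 38.4, 35.5 and 37.9 FPKM in the normal and 58.2, 56.1 and 59.4 FPKM in the obese libraries. Cd5l, a secreted macrophage protein, stood at 15.5, 15.2 and 15.8 FPKM in the normal and 27.01, 29.6 and 28.01 FPKM in the obese libraries. All 3 were higher in each obese library, by 0.85 ± 0.060, 0.62 ± 0.035 and 0.82 ± 0.043. The scavenger receptor Marco rose by 0.78, Cd68 by 0.74 and the complement genes C1qa and C1qb by 0.80 each. Clec10a was under the filter and not tested. It was listed at 0.9595, 0.9771 and 0.606 FPKM in the normal and 0.583, 0.407 and 0.640 FPKM in the obese libraries, with overlap. The part of these cells in the rise of inflammatory and complement genes was not tested.

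Of 31 stellate cell and matrix genes 21 rose, 3 fell and 7 did not pass (median log2 difference 0.36), with a summed level of 469.4 to 471.2 FPKM in the normal and 704.0 to 708.7 FPKM in the obese libraries. Lox, which cross-links collagen, stood at 2.86, 3.13 and 2.72 FPKM in the normal and 10.3, 9.76 and 10.1 FPKM in the obese libraries. Sparc, a matricellular protein, stood at 29.3, 30.4 and 29.4 FPKM in the normal and 51.9, 51.4 and 53.99 FPKM in the obese libraries. Timp3, an inhibitor of matrix proteases, stood at 6.12, 6.21 and 6.44 FPKM in the normal and 3.005, 3.35 and 3.06 FPKM in the obese libraries. Lox and Sparc were higher and Timp3 lower in all obese libraries, at 1.50, 0.80 and -0.81. Fibronectin (Fn1) and Ecm1, which hepatocytes also make, rose by 0.63 and 0.73 and hold a large share of the sum. Col3a1 rose by 0.37 and Col4a1 by 0.62. The activation markers Col1a1 (-0.13) and Acta2 (-0.01) did not pass, and Lrat, of quiescent stellate cells, fell (-0.26).

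Of 22 sinusoidal endothelial markers 16 rose and 6 did not pass (median log2 difference 0.29), at 128.7 to 129.9 FPKM in sum in the normal and 164.4 to 167.0 FPKM in the obese libraries. Clec4g rose by 0.78 and Cdh5 by 0.41, while Stab2 and Lyve1, defining markers of these cells, did not pass (0.01 and -0.02). Of 9 red blood cell genes 6 rose and 3 did not pass (median log2 difference 0.72), at 860.7 to 910.0 FPKM in sum in the normal and 1391 to 1674 FPKM in the obese libraries. Hba-a1, alpha globin, made up most of it at 647, 686 and 672 FPKM in the normal and 1218, 1001 and 1087 FPKM in the obese libraries. Slc4a1, the red cell anion exchanger, did not pass (-0.06), and copies of globin genes can share reads. The part of blood in the other differences was not tested.

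Markers of other cells were listed at low levels. Of 11 lymphocyte markers 5 rose and 6 did not pass, with a sum of 32.02 to 34.12 FPKM in the normal and 37.71 to 42.91 FPKM in the obese libraries. Of 3 neutrophil markers tested 2 rose and 1 did not pass, S100a9 by 0.91 from 2.89 to 6.24 FPKM, with a sum of 6.246 to 6.936 FPKM and 12.45 to 13.05 FPKM over the 11 listed. The fat cell markers Adipoq, Lep and Plin1 were listed at 0 in all 6 libraries, which need not mean absence, and the 3 tested ones, which other cells also make, rose (Cfd by 0.90, Fabp4 by 0.64 and Lipe by 0.30). The summed fat cell list came to 9.073 to 10.08 FPKM in the normal and 17.6 to 19.27 FPKM in the obese libraries. Of the exocrine pancreas markers Prss1, Prss2 and Pnlip were likewise listed at 0, and Cela1 rose by 0.54, the sum being 8.574 to 10.03 FPKM and 13.78 to 14.15 FPKM. Of the 3 bile duct markers tested Tff3 rose from 1.66, 2.11 and 1.80 FPKM to 7.64, 5.04 and 6.802 FPKM and Epcam fell (-0.28), while Krt19 and Sox9 were under the filter; the sum over the list was 18.1 to 19.13 FPKM and 20.37 to 22.25 FPKM.

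Hepatocytes along the lobule were compared by their zone markers. Of 10 hepatocyte markers 7 rose, 2 fell and 1 did not pass, and under quantile scaling 2 rose and 3 fell. Of 21 periportal genes 7 rose, 13 fell and 1 did not pass (median log2 difference -0.18), with sums of 8449 to 8469 FPKM in the normal and 6973 to 7075 FPKM in the obese libraries. Of 19 pericentral genes 8 rose, 7 fell and 4 did not pass, and under TPM 6 were higher and 9 lower, with sums of 2527 to 2551 FPKM and 2222 to 2238 FPKM. The sums of both zones were lower without overlap. A sum follows its most abundant members, and more of the pericentral genes rose than fell. Glul, the strict pericentral marker, fell by little (-0.06), a call that was lost in some other settings. Cyp2e1 fell from 969, 974 and 987 FPKM to 759.6, 741 and 738 FPKM (-0.39 ± 0.021). The part of zonation in the falls of urea cycle and glucose genes was not tested.

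**Figure D5:**
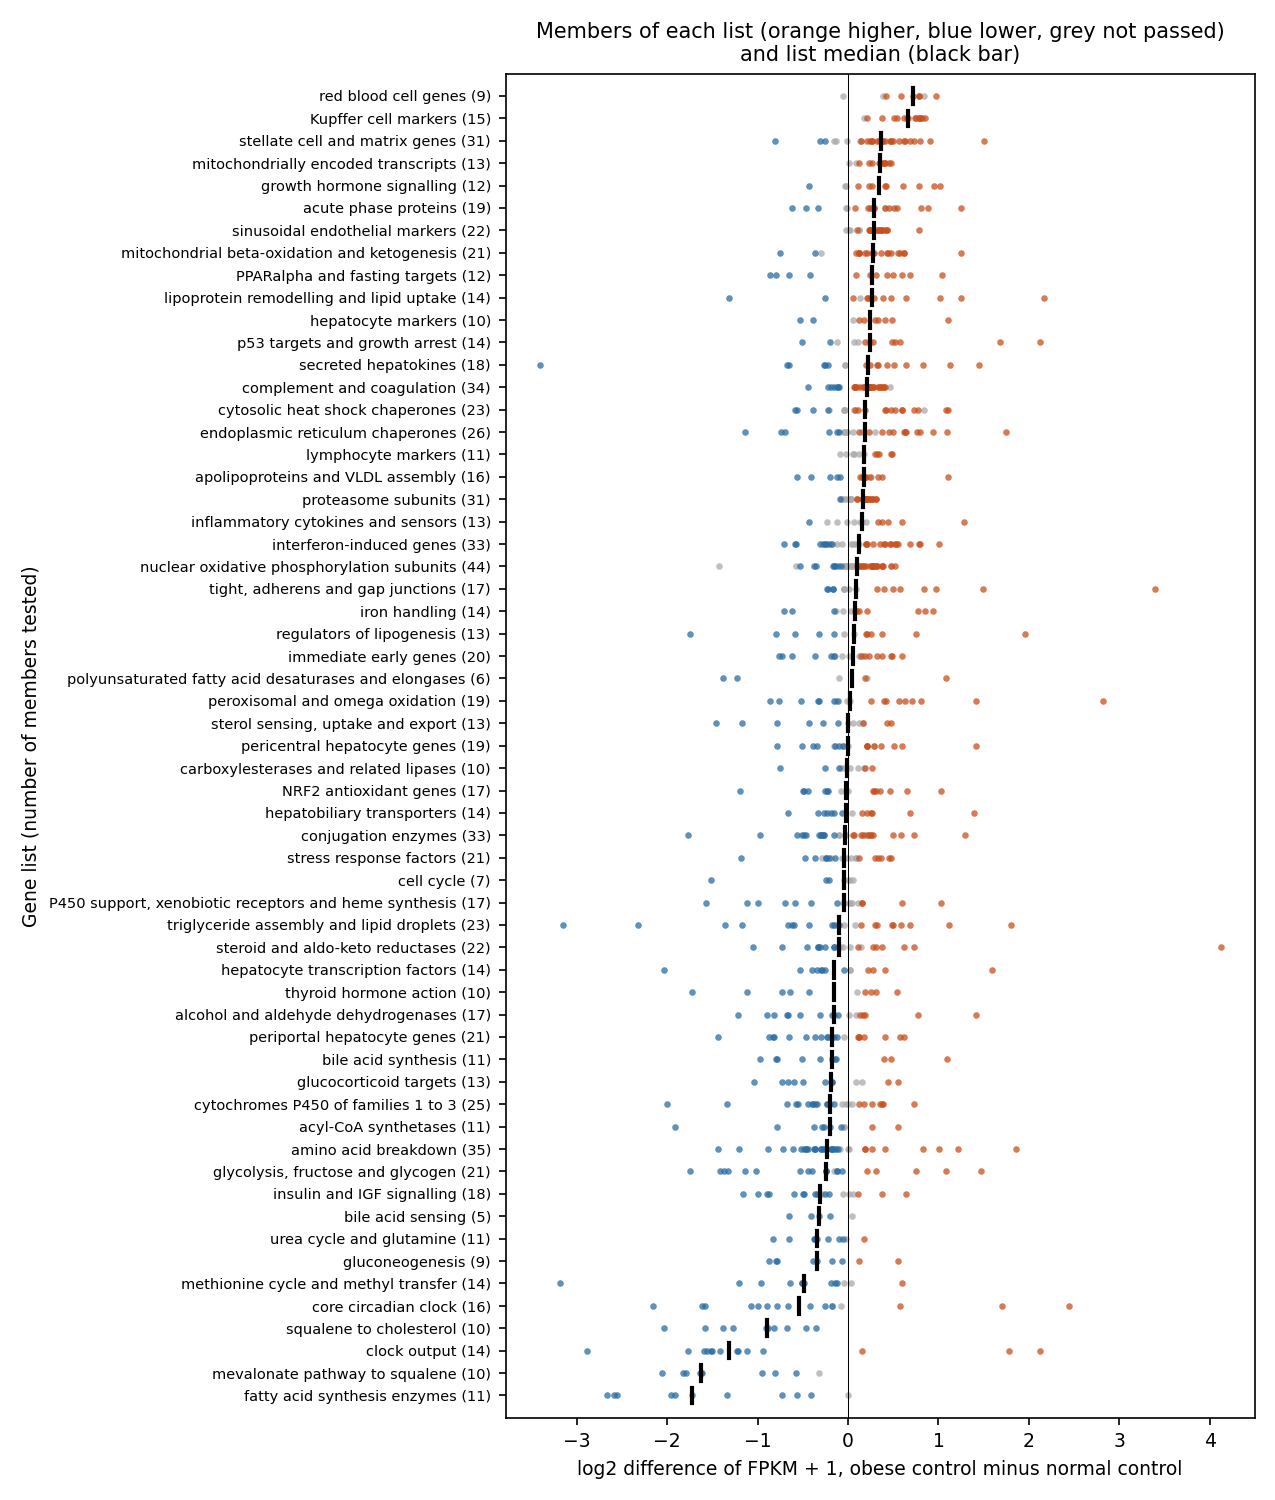
Each row is 1 gene list with 5 or more tested members (number in brackets), each point a member's log2 difference of FPKM + 1 (obese control minus normal control), orange where it rose, blue where it fell and grey where it did not pass, with the list median as a black bar. The medians run from 0.72 for red blood cell genes to -1.73 for fatty acid synthesis enzymes, with most lists near 0 and their members on both sides. Among all genes tested 26.7% rose and 28.4% fell.

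The levels of a few genes in the obese rats given orlistat or plantain are given beside those of the controls, with no test (mean ± SD, n = 3). Fasn stood at 39.4 ± 0.440 FPKM in the normal and 5.37 ± 0.273 FPKM in the obese control, 7.17 ± 0.176 FPKM with orlistat, and 5.72 ± 0.285, 8.81 ± 0.751 and 5.42 ± 0.234 FPKM at the low, medium and high dose of plantain. Arntl stood at 0.297 ± 0.0857 and 6.05 ± 0.571 FPKM in the controls, 2.28 ± 0.195 FPKM with orlistat and 2.01 ± 0.0489, 0.785 ± 0.152 and 0.845 ± 0.0494 FPKM at the 3 doses. Creld2 stood at 14.8 ± 1.22 and 52.3 ± 0.752 FPKM, 13.8 ± 0.946 FPKM, and 18.2 ± 1.99, 16.5 ± 1.29 and 14.1 ± 0.846 FPKM. Sqle stood at 17.3 ± 0.787 and 4.14 ± 0.423 FPKM in the controls, 6.89 ± 0.327 FPKM with orlistat and 6.599 ± 0.395, 6.14 ± 0.247 and 5.63 ± 0.375 FPKM at the 3 doses. Akr1c2 stood at 4.98 ± 0.497 and 103 ± 2.402 FPKM, 10.9 ± 0.292 FPKM, and 20.5 ± 0.941, 8.45 ± 0.528 and 15.9 ± 1.47 FPKM. These genes are examples and do not stand for all. Pnpla3 stood at 11.7 ± 0.896 and 0.434 ± 0.144 FPKM in the controls and 0.192 ± 0.0537 FPKM with orlistat. At the 3 doses Pnpla3 stood at 0.2945 ± 0.0594, 0.693 ± 0.0724 and 0.317 ± 0.134 FPKM.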

How the data were processed

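The authors deposited 1 table of FPKM values for 33657 genes in 18 libraries, with gene identifiers and coordinates. Per the labels, libraries were made from 1 µg of liver RNA with a NEBNext Ultra kit. The submitters' processing notes name CASAVA 1.7, Bowtie 0.12.2 and mm8, a mouse build, although the identifiers are rat, so the build of the table is uncertain. The sources used here do not say how reads of overlapping, antisense or copied genes were assigned. In all libraries 100% of the FPKM values came out as whole multiples of 1 read (tolerance 0.001, relative to the read count). Genes without reads and genes with many reads pass such a check in any case, so it speaks only for low counts. The reads were recovered on this basis. From the FPKM, log2(FPKM + 1) was fitted with limma 3.58.1 (R 4.3.3) over all 6 groups, with an intensity trend and Benjamini-Hochberg adjustment, for genes at 1 FPKM in at least 3 libraries. The fit was tested on simulated data. Symbols were taken from the table.

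Genes named are the 20 largest rises and 20 largest falls among protein-coding genes that passed without overlap, the 15 most abundant genes, and members of the gene lists, with values per library for the members with the smallest p. Akr1b7, Clock, Cry1, Cth, Hsp90aa1, Pnpla2 and Timp3 were shown per library after their values were seen. The members and lists were chosen with earlier results of these data known. Alternatives were other pseudocounts, filters and scalings (TPM, quantile), the 6 libraries alone, a replicate block, no trend, recovered reads with voom, and each library left out. Promoter windows come from RefSeq (GRCr8). Some genes are not reported here by name, though they count in the lists.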

Additional observations from a re-analysis of the deposited data

How the results depend on the processing

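Across 15 alternative settings, 279 of 307 genes named in the text kept their direction and their side of the threshold. Counts of genes past the threshold moved by over 1.5 times in a few settings. With TPM 1973 genes were higher, and 324 were lower by over 1 on the log2 scale. With a pseudocount of 0.1, 287 genes were higher and 314 lower by over 1, and with voom on the recovered reads, which called 3505 genes higher and 3312 lower, 359 and 325; both scales shrink low genes less. Leaving out 1 library at a time gave 2849 to 2926 genes higher and 3125 to 3203 lower, and 157 to 169 and 197 to 209 past 1. Among named genes the direction turned in TPM for Dnaja1 (-0.04) and Dnajc3 (-0.01), and the cause was not tested. Calls were also lost under TPM for Apob, Asl, Chordc1, Elovl1, Nfil3 and Srebf1, under quantile scaling for Abca1, Apob, Dnaja1, Hp and Ttr, without the trend for Dnaja1, Glul and Hnf4a, with voom for Glul and Hnf4a, with the 6 libraries alone for Hnf4a and Mdm2, and with a pseudocount of 0.1 for Pnpla2. The call of Pnpla2 was lost without obese control replicate 2 (-0.93) and without normal control replicate 2 (-1.33) or 3 (-1.08). The small differences of Hnf4a, Glul, Abca1, Elovl1, Chordc1 and Dnaja1 also lost their calls without some single libraries.

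Libraries with the same replicate number did not deviate together, with correlations of -0.029, -0.065 and -0.046, so the numbers were not taken as pairs. With the replicate block 3167 genes were higher and 3362 lower, and 6434 of the 6578 calls were made the same way. The normal libraries held more recovered reads than the obese ones, and the ratio of the authors' library total to the recovered reads was 0.9976 to 1.0192 in the normal and 0.9709 to 0.9802 in the obese libraries, so this scaling and the group cannot be told apart.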
